A study of Caenorhabditis elegans with 2 samples.

Results

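The genes examined are those of *Caenorhabditis elegans* for the proton pump of the lysosome, cathepsin B-like and aspartyl proteases, and 7 genes of lysosomal membrane and trafficking. Membership rests on the name and does not show that every product acts in the lysosome. Members were taken by name, as every protein-coding gene of the WBcel235 annotation whose symbol starts with vha-, cpr- or asp-, plus lmp-1, lmp-2, laat-1, ctns-1, scav-3, glo-1 and cup-5. That gave 52 of 19973 protein-coding genes, made up of 20 pump genes, 25 protease genes and the 7 others. Chromatin immunoprecipitation with an antibody against GFP had been performed on whole hermaphrodite L1 larvae of strain OP515 (unc-119(tm4063) III; wgIs515), collected, per the labels, 6 hours after synchronization by starvation. The strain carries a stably inserted transgene for NHR-20, a nuclear hormone receptor, with a C-terminal GFP-FLAG tag, over an unc-119 mutation of the kind against which such transgenes are selected. There was 1 group of 2 biological replicates, so the data hold no comparison between conditions, and every count below describes 1 set of binding regions.

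The vacuolar proton ATPase acidifies lysosomes by coupling ATP hydrolysis in its cytosolic V1 sector to proton flow through its membrane V0 sector. Low pH activates the cathepsins, which in worms serve both the lysosomes of many cells and digestion in the gut. Membrane proteins of the organelle carry amino acids and ions out of its lumen, and small GTPases direct its biogenesis, including that of the gut granules typical of the worm intestine.

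The DNA under the strongest promoter summits is shown first, because the short sites counted further on can be read in it. A summit is the position of highest signal in a bound region. Each sequence below, except the shorter one of cup-5, runs 100 bp to either side of it on the ce11 build. All are read on the coding strand of the gene named. Capitals mark matches on either strand to 3 sites, the GATA-type site TGATAA, the E-box CACGTG and the 6-mer GGTCTC, which reads GAGACC on the other strand. The 6-mer was chosen after these windows had been seen, and a match is a description of the letters, not evidence of a bound factor. The pump windows are those of vha-12 at chrX:4190653-4190853 (plus strand), vha-8 at chrIV:6790538-6790738 (plus) and vha-1 at chrIII:9780714-9780914 (plus). Protease windows are those of cpr-9 at chrV:12002061-12002261 (plus), cpr-3 at chrV:15298717-15298917 (minus) and cpr-1 at chrV:11975275-11975475 (plus). Membrane protein windows are those of lmp-1 at chrX:6378473-6378673 (minus) and cup-5 at chrIII:7584364-7584557 (plus). The cup-5 sequence begins at the edge of an annotated untranslated region and is 194 bp long, with the summit at position 94.
vha-12: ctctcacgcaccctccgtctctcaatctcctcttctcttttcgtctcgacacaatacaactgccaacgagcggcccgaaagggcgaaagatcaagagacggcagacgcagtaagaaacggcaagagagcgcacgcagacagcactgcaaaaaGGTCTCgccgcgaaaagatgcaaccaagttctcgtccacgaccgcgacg
vha-8: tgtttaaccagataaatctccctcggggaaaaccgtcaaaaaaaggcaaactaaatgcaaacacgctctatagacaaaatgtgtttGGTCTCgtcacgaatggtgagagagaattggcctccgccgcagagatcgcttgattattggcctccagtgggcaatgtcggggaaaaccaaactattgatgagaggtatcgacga
vha-1: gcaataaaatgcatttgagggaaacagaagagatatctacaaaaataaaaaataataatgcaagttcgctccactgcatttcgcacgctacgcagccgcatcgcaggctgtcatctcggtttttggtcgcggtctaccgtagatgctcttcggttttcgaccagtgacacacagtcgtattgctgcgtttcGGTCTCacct
cpr-9: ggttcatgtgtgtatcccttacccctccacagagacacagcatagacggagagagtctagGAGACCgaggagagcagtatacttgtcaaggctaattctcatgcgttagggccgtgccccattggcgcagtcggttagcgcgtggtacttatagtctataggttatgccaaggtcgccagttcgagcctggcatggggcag
cpr-3: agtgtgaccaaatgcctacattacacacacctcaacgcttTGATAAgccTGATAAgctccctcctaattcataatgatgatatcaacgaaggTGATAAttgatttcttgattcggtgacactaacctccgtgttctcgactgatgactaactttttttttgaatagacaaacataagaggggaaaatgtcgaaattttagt
cpr-1: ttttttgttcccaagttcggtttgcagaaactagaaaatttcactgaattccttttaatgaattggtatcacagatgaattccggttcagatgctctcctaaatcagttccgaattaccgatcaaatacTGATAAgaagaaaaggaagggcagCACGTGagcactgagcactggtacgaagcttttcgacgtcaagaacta
lmp-1: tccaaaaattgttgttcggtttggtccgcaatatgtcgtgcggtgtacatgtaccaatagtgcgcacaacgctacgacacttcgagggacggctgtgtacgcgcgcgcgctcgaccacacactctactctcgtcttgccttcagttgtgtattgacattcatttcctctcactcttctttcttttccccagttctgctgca
cup-5: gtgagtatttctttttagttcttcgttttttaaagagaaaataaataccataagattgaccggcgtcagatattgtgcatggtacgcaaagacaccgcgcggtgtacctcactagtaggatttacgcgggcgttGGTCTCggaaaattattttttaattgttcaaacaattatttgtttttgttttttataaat

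The pump windows of vha-12, vha-8 and vha-1 each held GGTCTC and no GATA-type site. At vha-8 the 6-mer started 14 bp before the summit, at vha-12 it started 52 bp after it and at vha-1 it started 91 bp after it. The cpr-3 window held TGATAA at 3 places, starting 60, 51 and 8 bp before the summit, and the cpr-1 window held 1 TGATAA followed by CACGTG. The strongest protease summit, at cpr-9, held neither of those sites and lay 15 bp from the transfer RNA gene F57F5.t1. It also lay nearer to the start of gcy-33 than to that of cpr-9.

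Promoter summits lay at 11 of the 20 pump genes and at 5 of the 25 protease genes. A promoter summit was one between 1000 bp before and 300 bp after an annotated start of the gene, in the list that the authors kept after their reproducibility analysis. The 6423 summits kept there had signals between 85.96 and 2711, where the signal is the value the authors' peak caller gave the region relative to a control. Of the 52 genes, 19 had a promoter summit (36.5%), against 20.6% of all protein-coding genes. The share was 55% for pump genes. For protease genes it was 20%, which is at the genomic background, and 3 of the 7 membrane and trafficking genes did (42.9%). The difference between the lists was not tested, since genes are not replicates. A matching precipitation from untagged worms was not analysed here, both replicates share a control alignment, and whole larvae mix all cell types.

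**Figure D1:**
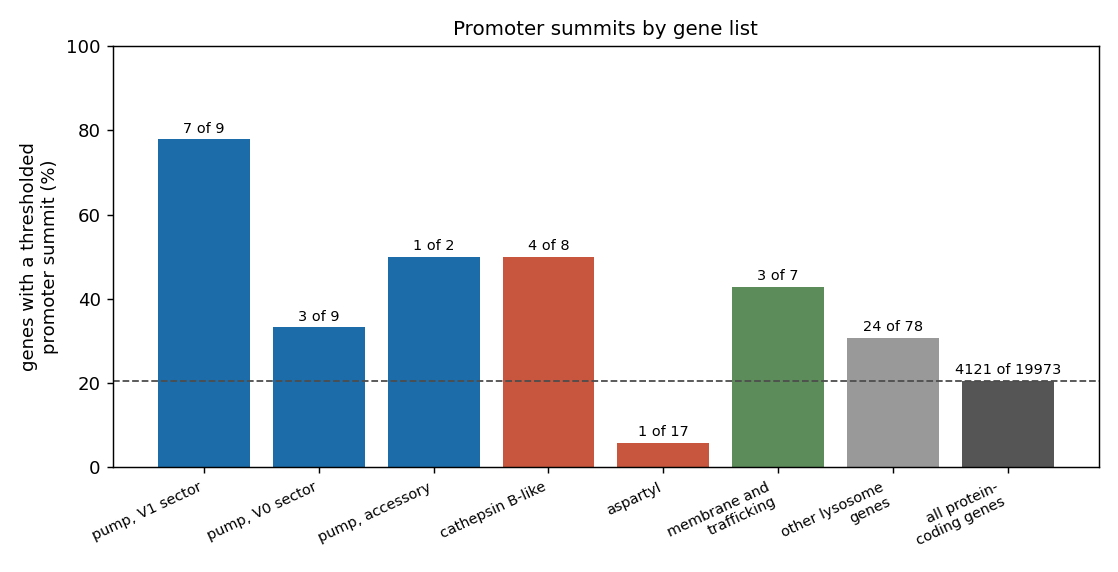
Share of genes with a thresholded promoter summit in each list (vertical axis, percent), with the number of genes over each bar and a dashed line at the 20.6% of all protein-coding genes. Genes of the V1 sector of the pump stand at 7 of 9 and aspartyl protease genes at 1 of 17.

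Within the pump, 7 of the 9 genes of the V1 sector had a promoter summit, as did 3 of the 9 genes of the V0 sector and 1 of the 2 accessory genes. The share over all protein-coding genes was 20.6%. The highest signal of all 52 genes was at vha-12, the B subunit of the ATP-hydrolysing head (WBGene00006921, gene at X, 4191094 to 4193144, plus strand). Its region (X, 4190604 to 4190923) had a summit 341 bp upstream of the start with a signal of 766, rank 241 of the pooled list. In replicate 1 that region had a signal of 450.6 and rank 277, and in replicate 2 a signal of 313.8 and rank 212. Signal scales differ between lists, so replicates are compared by rank, and by rank the replicates placed vha-12 close together.

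The next pump gene was vha-8, the E subunit of the peripheral stalk (WBGene00006917, IV, 6791074 to 6792455, plus strand). Its region (IV, 6790506 to 6790775) had a summit 436 bp upstream with a signal of 712.3, rank 288. It had a signal of 456.9 and rank 264 in replicate 1, and a signal of 263 and rank 317 in replicate 2. That summit also lay in the promoter window of the divergent gene C17H12.2, 585 bp away from vha-8, and counted by the nearest start it belonged to C17H12.2. Single, unshared summits of lower signal lay at vha-13 and vha-15. At vha-13, the catalytic A subunit, the summit was 545 bp upstream (V, 14351043 to 14351290, signal 392.7) and inside the 3′ UTR of the upstream gene cept-2, which is on the same strand. At vha-15, an H subunit, it was 272 bp upstream (X, 2237525 to 2237742, signal 379.4). Ranks at vha-13 were 1045 in replicate 1 and 955 in replicate 2, and at vha-15 they were 1128 in replicate 1 and 1027 in replicate 2.

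The remaining V1 genes with a summit had lower signals. The F subunit gene vha-9 had a summit 210 bp upstream (signal 268.2, ranks 1974 and 1502 in replicates 1 and 2). The summit of vha-14, the D subunit of the central shaft, was 133 bp upstream (signal 116.8, ranks 4502 and 4998). The G subunit gene vha-10 had the lowest signal of all members that passed, 105.3, at a summit 428 bp upstream within an intron of trpp-8 (ranks 5014 and 5483). No thresholded promoter summit was found for vha-11, the C subunit, or for vha-18, which encodes a second form of the H subunit. The strongest candidate region of vha-11 had a signal of 58.1, under the lowest thresholded signal of 85.96, and vha-18 had no candidate region in its promoter window at all. Of the genes for the H subunit, vha-15 therefore had a summit and vha-18 had none, with the nearest summit to vha-18 lying 6368 bp downstream of its start.

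In the V0 sector the summits lay at vha-1, vha-16 and vha-17. vha-1 encodes a c subunit of the rotor ring (WBGene00006910, III, 9781254 to 9781763, plus strand), and its summit 440 bp upstream had a signal of 442.6. In replicate 1 it had a signal of 311.5 and rank 653, and in replicate 2 a signal of 142 and rank 1002. This region (III, 9780702 to 9780942) lay between vha-1 and the divergent gene sqv-3 and counted in both promoter windows. vha-2, another c subunit gene, starts 400 bp downstream of the end of vha-1 on the same strand and had only a candidate of signal 50.23. The d subunit gene vha-16 had a summit 186 bp upstream of a start (signal 193.6, ranks 3053 and 2120). The e subunit gene vha-17 had one 360 bp upstream (signal 114.4, ranks 4675 and 6351) that it shared with F49C12.12. Counted by the nearest start, the vha-17 summit belonged to F49C12.12.

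Other genes of the rotor ring and all 3 vha genes for the a subunit had no thresholded promoter summit. Candidate signals were 76.61 at vha-4 and 28.04 at vha-3, both ring subunits. The a subunit anchors the proton path and exists in several forms, of which VHA-6 acts in the intestine and VHA-5 in the excretory canal and epidermis. vha-6 had a candidate of signal 27.92, and vha-5 and vha-7 had none. Their nearest thresholded summits lay 1907, 1858 and 2962 bp upstream of vha-6, vha-5 and vha-7. The fourth a subunit gene, unc-32, falls outside the naming rule and had a weak summit 277 bp upstream (signal 89.37, ranks 5648 and 8633). Of the accessory genes, vha-19 had a summit 337 bp upstream (signal 128.5, ranks 4991 and 4672), and vha-20 only a candidate of signal 66.23.

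The members nearest the threshold were vha-10 inside it (105.3) and vha-4 outside it (76.61).

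**Figure D2:**
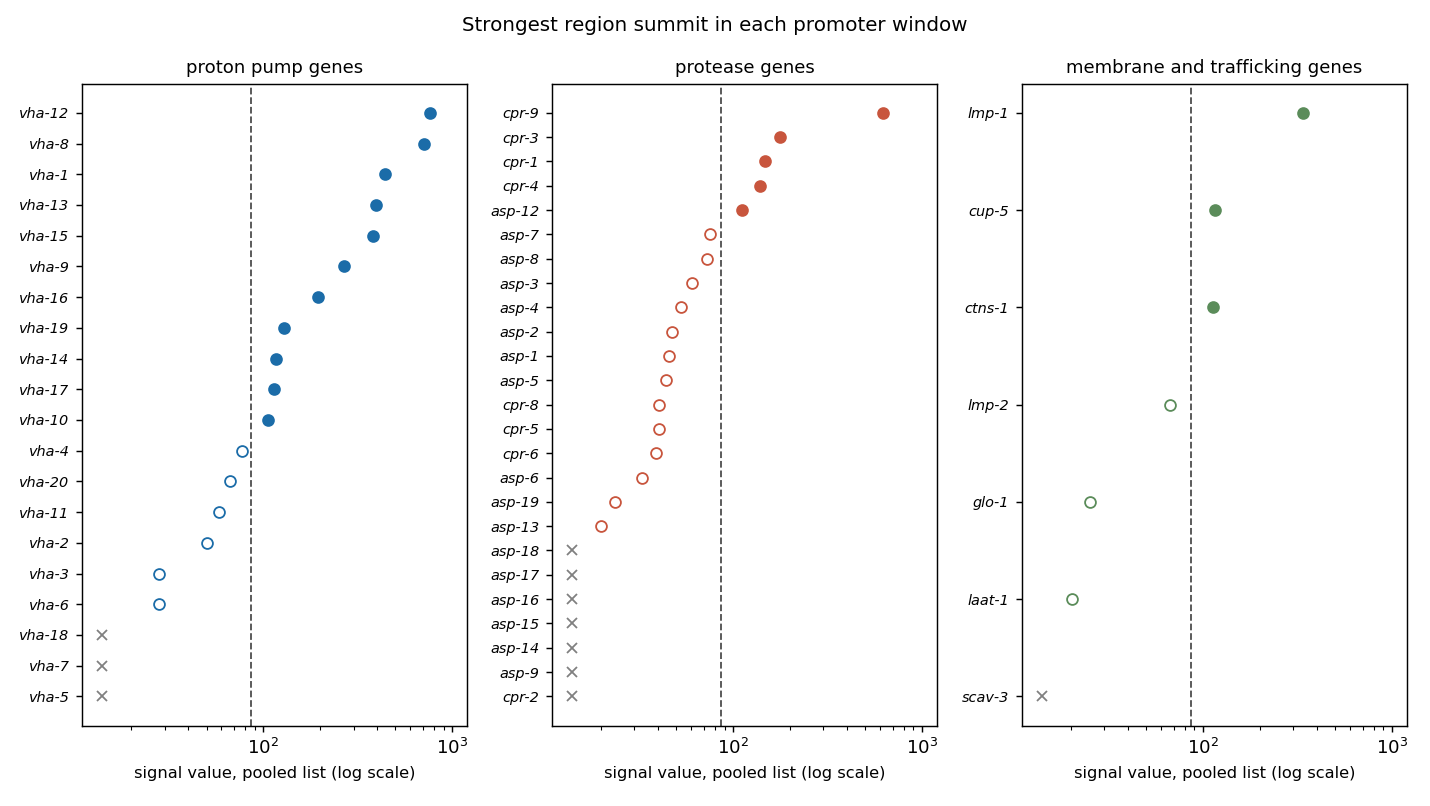
Signal of the strongest region summit in the promoter window of each of the 52 genes (horizontal log axis, pooled list), with genes sorted by signal. Filled circles passed the authors' threshold, open circles are candidates under it, grey crosses are genes with no candidate and have no value, and the dashed line is the lowest thresholded signal, 85.96. The 5 pump genes vha-12, vha-8, vha-1, vha-13 and vha-15 lie at 379.4 or higher, and asp-12 is the one aspartyl protease gene right of the line.

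Among the proteases, of 8 cathepsin B-like genes 4 had a promoter summit, and of 17 aspartyl protease genes 1 did, against 20.6% of all protein-coding genes. cpr-9 (WBGene00010204, V, 12003053 to 12004584, plus strand) had 3 summits, the most of any member. The strongest (V, 12002010 to 12002320, signal 622.5) had ranks of 408 and 387 in replicates 1 and 2. It lay 892 bp upstream, shared its window with gcy-33 and was the one beside the transfer RNA gene. A second summit 690 bp upstream had a signal of 149 and a rank of 3303 in replicate 1, and its nearest summit in replicate 2 was the rank 387 region just given. The third was 20 bp downstream of the start, in the 5′ UTR (signal 110.2, ranks 5570 and 4329). Without summits within 200 bp of a small RNA gene cpr-9 still counted through its summit at the start, and its strongest signal was then 110.2.

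Summits of the other cysteine proteases lay close to the start. cpr-3 had its summit 117 bp upstream (V, 15298736 to 15298861, signal 177.1, ranks 2784 and 3820). For cpr-1 the distance was 176 bp (V, 11975177 to 11975572, signal 146.9, ranks 3966 and 3642), and for cpr-4 it was 112 bp (V, 6614364 to 6614759, signal 139.1, ranks 4249 and 3744). All 3 signals lay between that of the weakest cpr-9 summit and that of the pump gene vha-16, and none of these summits was shared with another gene. Of the 25 protease genes 20 lie on chromosome V, among them the 5 with a summit, and 16.9% of all genes of that chromosome had one. The divergent pair cpr-5 and cpr-8, which lie 565 bp apart, shared 1 candidate of signal 40.54, cpr-6 had a candidate of 38.85, and cpr-2 had none.

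asp-12 was the aspartyl protease gene with a summit. The summit lay 522 bp upstream of one of its 2 starts, in an intron of the longer transcript (V, 8269923 to 8270318, signal 112), and ranked 6553 in replicate 1 and 4209 in replicate 2. It was the one member summit outside the 6423 strongest regions of replicate 1. Below the threshold, candidates lay at 10 further aspartyl protease genes. Of all 19973 protein-coding genes, 5310 likewise had only a candidate. The strongest were at asp-7 (signal 75.14, 106 bp upstream) and the neighbouring asp-8 (72.58, 157 bp upstream), followed by asp-3 (60.19) and asp-4 (53.01), homologs of cathepsin D. Both asp-7 and asp-8 carried the same −log10 q-value as the thresholded regions, 4.18, and so did vha-4. asp-1, asp-2, asp-5, asp-6, asp-13 and asp-19 had candidates of signal 20.02 to 47.38, and asp-9, asp-14, asp-15, asp-16, asp-17 and asp-18 had no pooled candidate. Each replicate alone placed a region in the window of asp-14, of rank 27168 in replicate 1 and 16698 in replicate 2. At asp-4 a weak thresholded summit lay further in, in an intron 623 bp downstream of the start (signal 90.23, rank 6111).

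Among the 7 membrane and trafficking genes, 3 had a summit, against 20.6% of all protein-coding genes. lmp-1, a LAMP-like protein of the lysosomal membrane (WBGene00003053, X, 6376459 to 6377684, minus strand), had the strongest, 889 bp upstream (X, 6378478 to 6378704, signal 338.6, ranks 967 and 2008 in replicates 1 and 2). cup-5, the worm mucolipin channel, had a summit in an intron 116 bp downstream of one of its 5 starts (signal 116.4, ranks 5574 and 4150). ctns-1, the cystine exporter cystinosin, had one 642 bp upstream (signal 113.3, ranks 5171 and 4971) that also lay in the window of cdc-48.2. lmp-2 had a candidate of signal 66.53, glo-1, a Rab GTPase of gut granules, one of 25.34, and laat-1, the exporter of lysine and arginine, one of 20.19. scav-3, of the CD36 family, had no pooled candidate, although replicate 1 alone placed a region of rank 4633 in its window and replicate 2 one of rank 16105.

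Counting candidates in place of thresholded regions raised the number of members. The pooled list held 30000 candidate regions, and 47.2% of all protein-coding genes had a candidate summit in the promoter window. Among the members 41 of 52 did, including 17 of 20 pump genes and 18 of 25 protease genes. Taken over all genes of a list, with or without a candidate, the median rank of the strongest candidate was 5253 for the pump and 12325 for the proteases, and the median gene of the whole annotation had none. For the 20 pump genes, 5253 is the higher of the 2 middle ranks, the other being 4835. Among the genes that passed the threshold, the median signal was 268.2 for 11 pump genes, 146.9 for 5 protease genes, 116.4 for 3 membrane and trafficking genes and 200.2 for all 4121 genes. These medians describe only the genes that passed.

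Each replicate alone gave nearly the same members. Counting a replicate's own 6423 strongest regions, replicate 1 placed a summit in the promoter window of 19 members, against 20.7% of all genes, and replicate 2 also of 19, against 20.3%. In both replicates 18 members had one, against 17.7% of all genes. The 11 pump genes were found in each replicate. Replicate 1 lacked asp-12 and added scav-3, and replicate 2 gave the same 19 genes as the pooled list. Of the 21 distinct member summits, 20 were matched within 200 bp among the strongest regions of both, against 2983 of 3609 promoter summits of any gene. The rank 387 region of replicate 2 was the match of both upstream cpr-9 summits. Spearman's correlation of the ranks in the replicates was 0.838 over the 21 summits and 0.846 over 3558 promoter summits of any gene with a counterpart in each. The replicates share a control and the summits were drawn from their pool, so these values describe the lists and are no independent estimate of error.

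**Figure D3:**
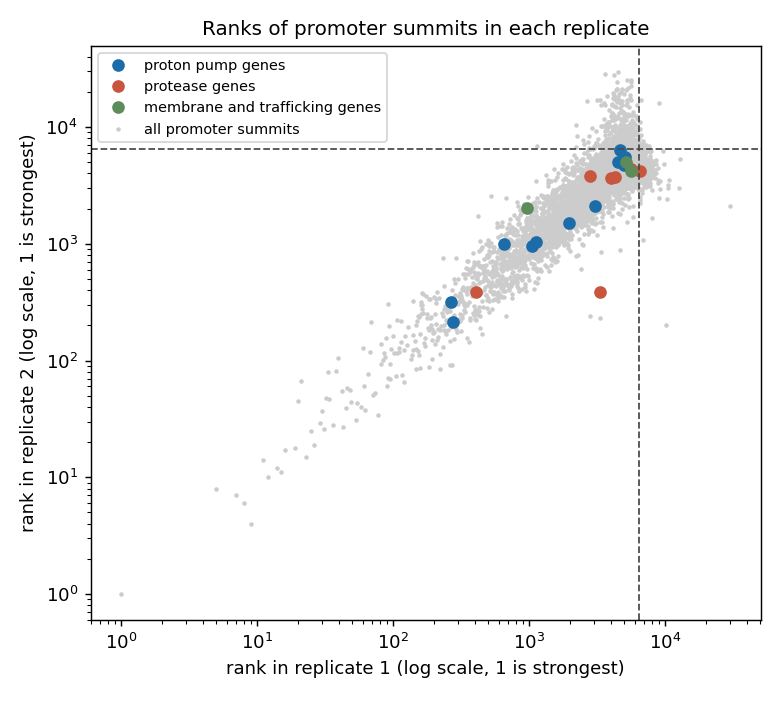
Rank of each promoter summit in replicate 1 (horizontal) and replicate 2 (vertical), both on log axes with 1 the strongest. Coloured points are the 21 member summits, grey points are all promoter summits, and dashed lines mark rank 6423. The member point far off the diagonal is the second cpr-9 summit, at rank 3303 in replicate 1 and matched to the rank 387 region in replicate 2.

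Distance from the start varied among the lists. All 11 pump genes had their strongest summit upstream, from 133 to 545 bp, with a median distance of 341 bp. Strongest summits of all 4121 genes that passed had a median distance of 233 bp from the start, and 3875 of them were upstream. Those of all 5 protease genes were upstream too, and the window reaches further upstream than downstream. The cysteine protease genes other than cpr-9 had theirs 112 to 176 bp upstream. Of the 19 members, 5 shared their strongest summit with another protein-coding gene (3 of 11 pump genes), against 1724 of all 4121 genes (41.8%). Without shared summits 15 members and 8 pump genes were left, and 12.2% of all genes.

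Of the short sites searched, the GATA-type site stood apart most by count. In the 201 bp centred on each summit, the GATA-type site TGATAA, which intestinal GATA factors of worms are known to bind, was present at 0 of 11 pump summits and at 6 of 7 protease summits. Over all 3609 promoter summits its share was 21.3%. The exception among the protease summits was the strongest cpr-9 summit, whereas cpr-3, cpr-4 and the other cpr-9 summits each held 3 copies. In windows of the same width centred 500 bp to either side, TGATAA was present in 7 of 22 at pump genes, in 1 of 14 at protease genes and in 18.5% at all promoter summits. ctns-1 was the membrane gene with the site at its summit. No test was made of these shares. Of the 7 protease summits, 3 were counted for cpr-9, and its upstream ones lay nearer to the start of gcy-33.

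The same site was read at candidates that had missed the threshold, a comparison added after the first counts were seen. Of 12 strongest candidates at protease genes, 9 held TGATAA, against 27.9% of 4827 such candidates at any gene. They were those of asp-2, asp-4, asp-5, asp-6, asp-7, asp-8, asp-13 and cpr-6 and the region shared by cpr-5 and cpr-8. At pump genes 2 of 6 did, those of vha-3 and vha-11. Across the whole promoter window the site was common everywhere, at 25 of 25 protease genes, 16 of 20 pump genes and 74.4% of all genes.

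**Figure D4:**
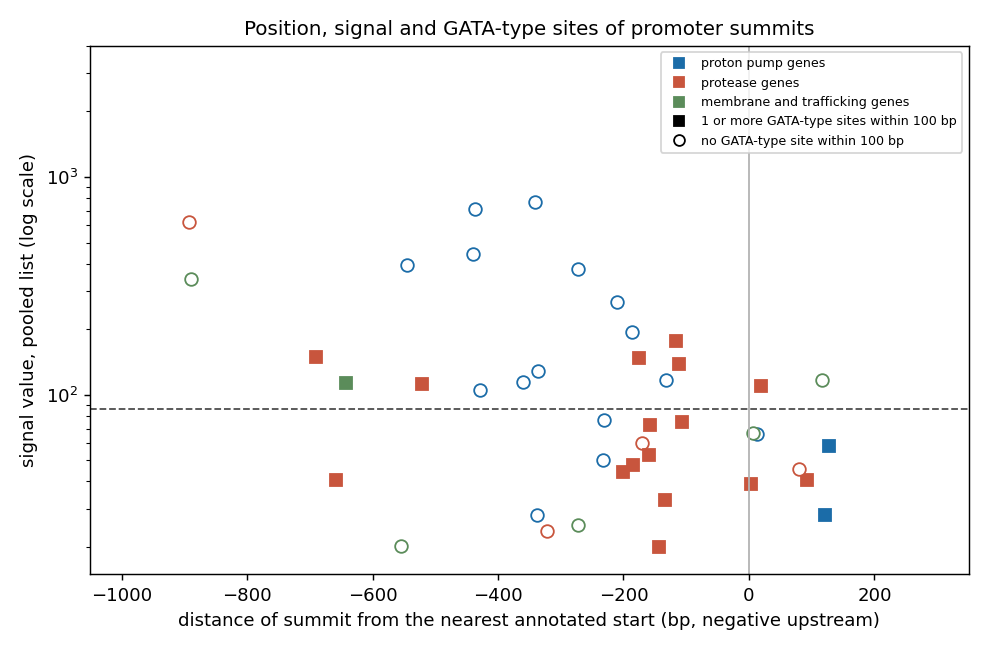
Signal (vertical log axis, pooled list) against distance from the nearest annotated start of the member gene (horizontal, bp) for all promoter summits of members and, for members without one, the strongest candidate. Filled squares have a GATA-type site within 100 bp and open circles have none, colours give the list, and the dashed line is the lowest thresholded signal, 85.96. Every pump summit above the line is an open circle, and the protease points above it are filled except the cpr-9 summit at 622.5.

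The other fixed sites were rarer at member summits. The E-box CACGTG was found at 0 of 11 pump summits and 3 of 7 protease summits, at cpr-1, cpr-9 and asp-12, against 9.61% of all promoter summits. It fell to 1 of 21 member summits, against 6.82% of all, when only 50 bp to either side were read. The longer palindrome TCACGTGA, the core of the site of the lysosomal regulator HLH-30, contains that E-box and was found at none of the 21 member summits and at 1.44% of all promoter summits. The nuclear receptor site AGGTCA was likewise at 0 of 21, against 7.65% of all, and the extended form AAGGTCA, which overlaps it, at 0 of 21, against 2.99%. GGTCTC, the 6-mer chosen after the windows had been seen, lay at 6 of 11 pump summits (vha-1, vha-8, vha-12, vha-15, vha-16 and vha-19), against 11% of all promoter summits. The windows of vha-1, vha-8 and vha-12 are among those from which it was chosen, so this count is raised by the choice. GGTCTC was also present at cup-5 and at the strongest cpr-9 summit, whose windows were likewise among those shown. Windows beside the pump summits held it in 2 of 22 cases, against 5.71% beside all promoter summits. Across the whole promoter window it was present at 12 of 20 pump genes and 8 of 25 protease genes, against 27.8% of all genes. Median GC content of the 201 bp was 45.8% at pump summits, 39.8% at protease summits and 40.3% at all promoter summits, and its part in the site counts was not tested.

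**Figure D5:**
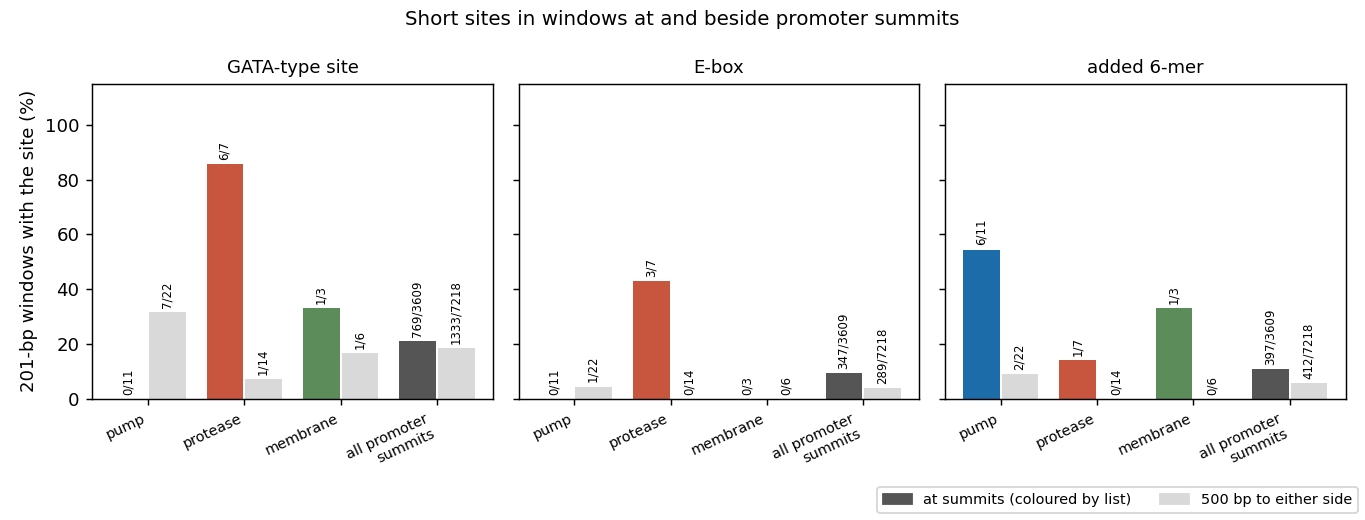
Share of 201-bp windows holding each site (vertical axis, percent) at promoter summits (coloured bars) and 500 bp to either side of them (grey bars), with counts over the bars. The right panel is the 6-mer chosen after the windows had been seen, and its counts include the windows from which it was chosen. Protease summits stand at 6 of 7 for the GATA-type site, and pump summits at 0 of 11 for that site and 6 of 11 for the 6-mer.

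Lysosome genes outside the naming rule were read from a list of 79 symbols, of which 78 were found in the annotation. Promoter summits lay at 24 of them (30.8%), against 20.6% of all protein-coding genes. The strongest was rab-7, the GTPase of late endosomes, with a summit 795 bp upstream (signal 774.3, ranks 182 and 334 in replicates 1 and 2) that it shared with mex-1 and W03C9.5. ppk-3, the lipid kinase that makes the phosphoinositide of late endosomes and lysosomes, had an unshared upstream summit (signal 586.7, ranks 402 and 547). Next came glo-4, a factor of gut granule biogenesis (signal 491.7), the carboxypeptidase-type cathepsin gene cpz-2, shared with ifbp-1 (476.4), and hlh-30, the worm TFEB, with 3 promoter summits (strongest signal 353.1, 223 bp upstream). The rab-7 summit lay nearer to the start of a gene that shared it, and the cpz-2 summit nearer to that of ifbp-1. cpl-1, the cathepsin L gene, had a summit of signal 111.3.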

How the data were processed

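Chromatin immunoprecipitation and sequencing gave lists of bound regions in narrowPeak form for 1 group of 2 biological replicates, defined by the replicate number in the labels. Per the notes deposited with the samples, candidate lists were derived for each replicate and for both pooled, against a shared control alignment. The authors then thresholded the regions on irreproducible discovery rate (IDR). Its cut-off, like the name of the aligner and of the caller, was not given in the sources used here. The signal and the −log10 q-value of each region are the authors' deposited values. The files hold no read totals, so depth is unknown, and no interval or error could be attached to a signal.

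Only the ce11 lists were used, with the Ensembl release 115 annotation and the RefSeq genome of WBcel235, which is the same build. No region ended beyond its chromosome. Symbols came from RefSeq through WormBase identifiers, and all 52 members matched. The thresholded list was identical to the 6423 strongest pooled candidates, and regions were ranked by signal. Distances run to the nearest protein-coding transcript start. A replicate match is the nearest summit within 200 bp. Sites were searched on both strands. The window assignment was tested on simulated data, where 200 of 200 summits planted inside a window and 200 of 200 planted 1 bp beyond it were placed correctly among 19973 genes. Python 3.11.15 and matplotlib 3.10.9 were used. Members, lists and the 5 fixed sites were chosen with earlier results of these data known. Named were every member with a promoter summit, the members without one, the 5 strongest candidates among these and the 5 strongest other lysosome genes, while cpl-1, unc-32, the intronic asp-4 region and the site GGTCTC were added once their values were known. Alternatives covered the promoter window, the region list, the replicate used and the gene models.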

Additional observations from a re-analysis of the deposited data

How the results depend on the processing

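No paired analysis was possible because there was 1 group and no test. Counts of members with a promoter summit (19 of 52) stayed within 1.5 times under 7 of 9 alternatives other than single replicates, and those of pump genes (11) and protease genes (5) did so too. Of these 9, the 3 without shared summits, without summits near small RNA genes and with both replicates matched were chosen after seeing the data. The 2 exceptions changed the list of regions by construction. With only summits at or above the median signal of 169.5, the counts were 10 members, 7 pump, 2 protease and 1 membrane gene, and 12.3% of all genes. With all pooled candidates they were 41, 17, 18 and 6, against 47.2% of all genes. With a window of 500 bp upstream to 100 bp downstream, 15 members were left, against 16.3% of all genes, with 1 membrane gene in place of 3, and vha-13, asp-12, lmp-1 and ctns-1 were lost. A window of 2000 bp upstream to 500 bp downstream added vha-2, vha-3, vha-5, vha-6, asp-3 and asp-6, to 25 members, against 26.3% of all genes. With each summit counted for 1 gene, 17 members and 9 pump genes were left, against 16.4% of all genes, and vha-8 and vha-17 were lost. Leaving out a replicate gave 19 members, 11 pump genes, 4 to 5 protease genes and 3 to 4 membrane genes. Windows of 50 bp to either side of the summit left CACGTG at 1 member summit in place of 3, and TGATAA at 6 in place of 7, against 11.4% of all promoter summits. Matches in both replicates ranged from 19 to 21 of 21 summits with tolerances of 100 and 500 bp and with all candidates. Depth is unknown, so a missing summit does not show that signal was absent. Sites were counted at few summits, 11 at pump genes and 7 at protease genes, of which cpr-9 gave 3.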
